A study of Arabidopsis thaliana with 44 samples.

Results

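The m6A sites that lie in 5' UTRs of Arabidopsis thaliana (accession Col-0) are described here. They were chosen as every site on chromosomes 1 to 5 that the deposited site tables place in a 5' UTR. Among listed sites this choice uses position only. The tables hold the sites the authors identified, so being listed itself depends on the measured level. The table of 9 tissues holds 5391 such sites among 187374 sites (2.88%), in 3881 of 19858 genes with any site (19.5%). The table of the mta experiment holds 1142 among 50046 sites (2.28%), in 995 of 11902 genes (8.36%), and 643 sites stand in both tables. The sites were measured by m6A-SAC-seq, in which the enzyme MjDim1 adds an allyl group to m6A in polyA RNA, so that reverse transcription leaves a mutation at the modified base. The m6A fraction, the share of the transcripts that carry m6A at a base, was calibrated by the authors against spike-in probes of the same sequence motif. Each tissue or genotype has 1 fraction and 1 depth (the reads covering the base) per site, made from its replicates together, so no spread between replicates exists for a single site.

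The mta seedlings were 8 days old and carry a loss of MTA that is bridged in the embryo by an MTA transgene under the ABI3 promoter (ABI3::MTA/mta), and Col seedlings stood beside them with no age given in the labels. The tissues were Col-0 seedlings of 7 days, shoots and roots of 14 days, rosette leaves of 30 days, cauline leaves, stems, flowers and siliques of plants after flowering, and dry seeds. Every tissue and genotype had 2 replicates, each with a treated and an input library, or 44 libraries in all. Gene counts summed to between 10382637 and 14693950 in the treated libraries of the tissues and to between 3355823 and 6903234 in the input libraries. Of 16 tissue marker genes, 15 were highest in the tissue they mark, and the seed storage gene SESA1 was the exception, with 1418 CPM (counts scaled to a common library total) in silique and 1318 CPM in seed. MTA itself was at 3.74 and 2.98 TPM (transcript level corrected for gene length and library total) in mta seedlings, against 5.94 and 5.99 TPM in Col seedlings. That is lower in mta (log2 fold change -0.68, SE 0.14, adjusted p = 0.0119, limma), with MTA transcript still present.

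m6A is set on nascent mRNA by a methyltransferase complex whose catalytic subunit in Arabidopsis is MTA, together with MTB, FIP37, VIR and HAKAI, and it is removed by demethylases such as ALKBH10B and read by YTH proteins such as ECT2. In plants the mark is known for its concentration in 3' UTRs and around stop codons, at motifs in which a purine precedes AC (RAC). The 5' UTR is the stretch the ribosome scans before it meets the start codon, and it may hold short upstream open reading frames (upstream ORFs) that lower or condition translation of the main protein.

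The sequences that carry the results follow as 21-nt windows of RefSeq's TAIR10.1 assembly, read 5' to 3' on the strand of the gene, with the 5-nt motif around the site in capitals. The first set holds sites that passed the authors' calling in all 9 tissues. VTC2 and VTC5 are GDP-L-galactose phosphorylases of ascorbate synthesis, RAN2 is a nuclear transport GTPase, UBC35 a ubiquitin-conjugating enzyme, PGY1 a cytosolic ribosomal protein, and FAD6 a plastid fatty acid desaturase.
VTC2, chr4:13501322-13501342, minus strand: tgccgtctGAAGGcggcagcc
VTC5, chr5:22369361-22369381, plus strand: tgccgtctGAAGGcggcagtc
RAN2, chr5:6762775-6762795, plus strand: aacctcgaCGACAtcaacgtc
UBC35, chr1:29650569-29650589, plus strand: agctcgatCGACAagtgataa
PGY1, chr2:11764569-11764589, minus strand: acctgagaAGACActcaatat
FAD6, chr4:15059721-15059741, minus strand: atctcataAGACAtattgccg
ERD15, chr2:17269334-17269354, plus strand: aaataagaAGACAtatttatc
emb2184, chr1:28272147-28272167, plus strand: gctcctgaAGACAaaaatggc

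The second set shows sites that touch the start codon ATG, with the deepest reads among RAC sites there, and the third shows a site that is 5' UTR of AT3G26430 and at the same time 3' UTR of its neighbour. XTH24 is a xyloglucan endotransglucosylase/hydrolase of the cell wall and PSBY a photosystem II subunit.
XTH24, chr4:14820441-14820461, minus strand: acacacaaAGACAatgtctcc
PSBY, chr1:25394991-25395011, minus strand: tcatcatcAGACAatggcagc
AT4G26710, chr4:13468693-13468713, plus strand: ttgggatcAGACAtggctttt
AT3G26430, chr3:9673373-9673393, plus strand: ttggtttgAGACAatttgaga

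Where the sites lie was asked first. Most carrier genes held 1 site: 2869 genes had 1, 708 had 2, 197 had 3 and 107 had 4 or more. The median distance to the start codon was 64 nt (quartiles 24 and 154), and 2334 sites (43.3%) lay within 50 nt of it. Only 28 lay in the first 10 nt of the transcript, and 747 lay in a later exon than the first. Carrier genes had a median 5' UTR of 271 nt, against 194 nt over all 20131 transcripts with sites and a 5' UTR. An upstream ORF held 1246 sites (23.1%), and in 109 the site was the A of an upstream ATG.

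Site density climbed through the 5' UTR towards the coding sequence (CDS). Per 1000 RAC motifs there were 9.64 sites at 276 to 300 nt before the start codon, 21.9 at 76 to 100 nt and 45.0 in the last 25 nt. The first 25 nt of the CDS held 48.3 per 1000. Depth moved the same way: the listed RAC sites, each taken at its median tissue, had a median depth of 14.5 reads in the farthest bin and 42.5 in the last 25 nt, and the part of depth in the site density was not tested. At single bases, the A at 2 nt before the ATG was listed in 127 genes and that at 3 nt before it in 132, but that at 1 nt before in 7, where the following A of the ATG allows no RAC. Per 1000 RAC motifs the first 2 positions held 84.2 and 42.6 sites.

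**Figure D1:**
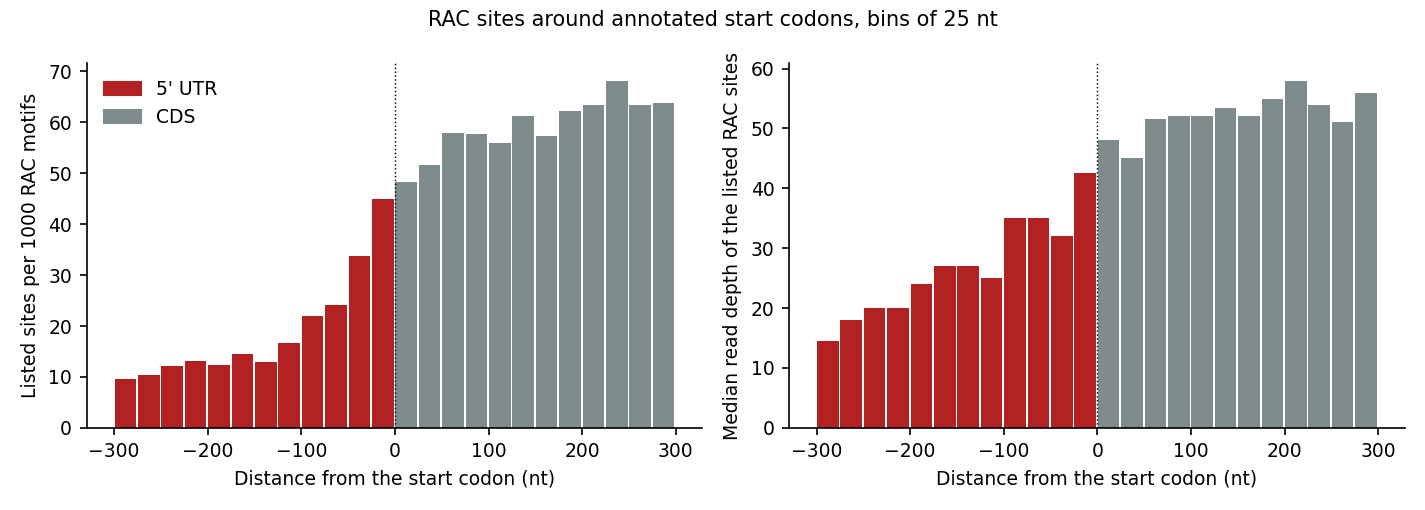
Left panel, listed sites per 1000 RAC motifs, and right panel, median read depth of those sites (y axes), in 25-nt bins by distance from the start codon (x axes, nt), with red bars for the 5' UTR and grey bars for the CDS. The density is 9.64 in the farthest bin, 45.0 in the last bin before the start codon and 48.3 just after it, while the median depth goes up over the same bins.

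RAC motifs made up 2677 of the 5391 sites (49.7%), GAT motifs 657 (12.2%) and all other motifs 2057 (38.2%). The most frequent motif was AGACA with 757 sites, then AGACT with 492, AGAGA with 461 and AGACG with 362. The classes differed in how often the fraction stood at a limit: among values backed by 20 reads or more, a fraction of exactly 1 made up 1.19% of RAC values, none of the GAT values and 5.92% of the others. A fraction of exactly 0 made up 12.1%, 9.06% and 29.0% of them in the same order. Values of 0 and 1 were thus most common at motifs outside RAC and GAT.

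The level was compared with that of CDS and 3' UTR sites in each tissue, using bases covered by 20 reads or more, which 3091 to 4417 of the 5' UTR sites reached. Median m6A fractions in 5' UTRs were 0.107 in seedling, 0.113 in shoot, 0.0530 in root, 0.0584 in rosette leaf, 0.113 in cauline leaf, 0.0768 in stem, 0.0954 in flower, 0.134 in silique and 0.0722 in seed. Silique was highest and root and rosette leaf were lowest, as among CDS sites (0.1415 in silique, 0.0554 in root and 0.0633 in rosette leaf). The medians were below those of 3' UTR sites in 9 of 9 tissues, with a mean 5' UTR minus 3' UTR difference of -0.218 (range -0.253 to -0.176, adjusted p = 0.00521, exact two-sided sign-flip test over tissues, Benjamini-Hochberg over 4 tests). A p of 0.00391 before adjustment is the smallest that 9 tissues allow, and as the tissues share sites and some share organs, it measures the spread between tissues only.

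Against the CDS the difference was small and its direction depended on which sites were counted. The 5' UTR median was lower in 8 of 9 tissues, with a mean 5' UTR minus CDS difference of -0.00462 (range -0.00785 to 0.000892, adjusted p = 0.00781, same exact test). Within RAC motifs alone the 5' UTR median was higher in 8 of 9 tissues (0.00491, adjusted p = 0.0117). With values of exactly 0 and 1 left out, an alternative chosen after seeing the data, it was higher in 9 of 9 (0.00324, adjusted p = 0.00391), and among the sites that passed the authors' calling in the tissue it was also higher in 9 of 9 (0.0315, adjusted p = 0.00521). The share of RAC motifs was lower in 5' UTRs than in the CDS in 9 of 9 tissues, with a mean difference of -0.596 percentage points (adjusted p = 0.00521), and this too turned round when 10 reads were enough (0.299 points higher, adjusted p = 0.0352), while at 50 reads it was -2.21 points (lower in 9 of 9, adjusted p = 0.00391).

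**Figure D2:**
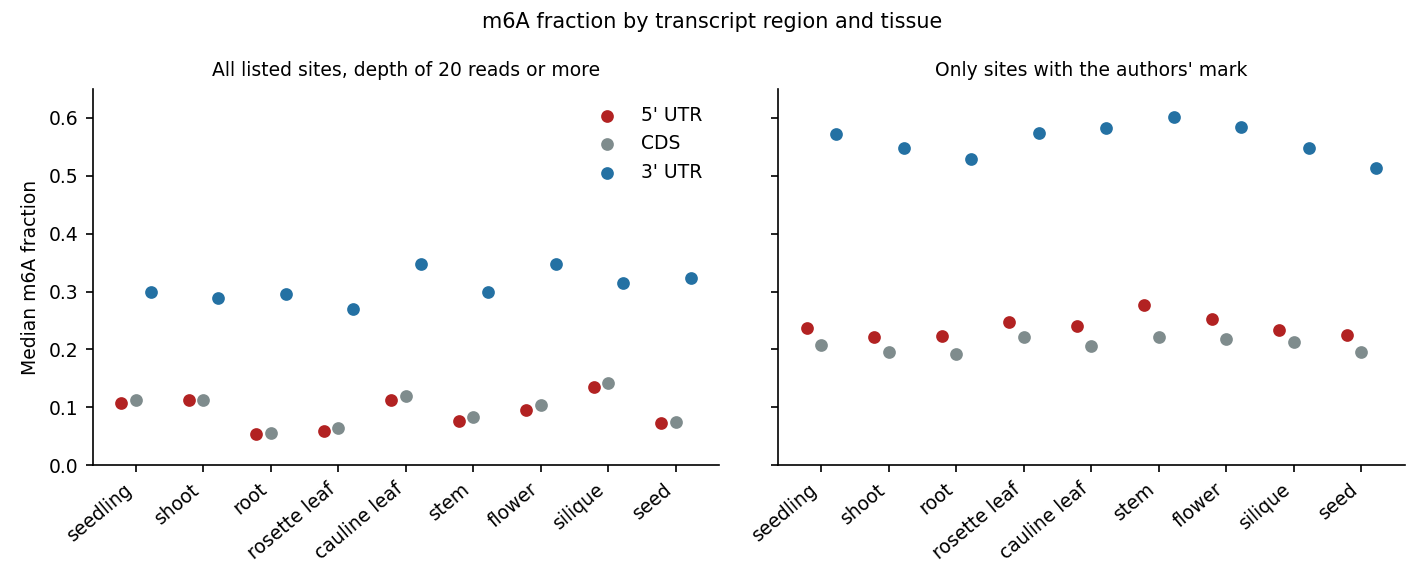
Median m6A fraction (y axis) of 5' UTR, CDS and 3' UTR sites covered by 20 reads or more, for each of the 9 tissues (x axis), as 1 point per region, over all listed sites in the left panel and over sites with the authors' mark in the right panel. In the left panel the 5' UTR medians run between 0.0530 in root and 0.134 in silique beside those of the CDS, in the right panel they lie above the CDS in 9 of 9 tissues, and the 3' UTR points are the highest throughout.

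Within the 5' UTR, sites in the last 50 nt before the start codon had lower fractions than the others in 9 of 9 tissues, with a mean difference of -0.0119 (range -0.0227 to -0.00329, adjusted p = 0.00521, same exact test). In silique the medians were 0.129 within 50 nt and 0.141 farther off, and in root 0.0493 and 0.0576. Within RAC motifs the difference was -0.00271 (adjusted p = 0.285), lower in 5 of 9 tissues. It was -0.0439 among sites with the authors' mark and -0.0191 with values of exactly 0 and 1 left out, lower in 9 of 9 tissues in both. RAC sites had medians of 0.0702 to 0.166 over the tissues, GAT sites 0.0401 to 0.119 and other motifs 0.0307 to 0.1095, with RAC above both in all 9. Sites in upstream ORFs had medians of 0.0605 to 0.150, against 0.0514 to 0.131 outside them, and were the higher of the pair in 9 of 9 tissues. These orders among motif and upstream ORF classes are descriptions without a test.

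A small group stood far above the rest. Of the 5391 sites, 225 lay in an exon of another gene as well, 146 of them on the opposite strand only, and 69, in 27 genes, lay in the 3' UTR of a neighbour on the same strand. These 69 had tissue medians of 0.269 to 0.448 (30 to 54 sites a tissue), against 0.0522 to 0.1335 for sites in no exon of another gene. They were the higher in 9 of 9 tissues, and lay nearer to the 3' UTR medians than to those of other 5' UTR sites. Reads at such a base can come from either transcript, and the deposited values cannot assign them. Sites with only an antisense exon over them had medians of 0.0589 to 0.137.

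**Figure D3:**
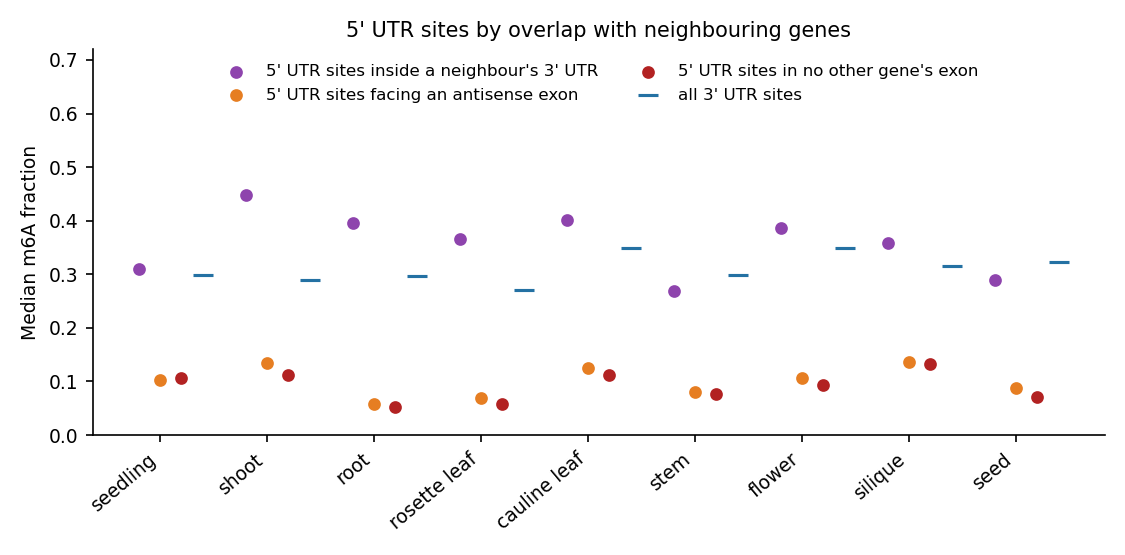
Median m6A fraction (y axis) in each tissue (x axis) of 5' UTR sites that also lie in the 3' UTR of a gene on the same strand, of those under an antisense exon only, and of those in no exon of another gene, with a dash for the median of all 3' UTR sites. The first kind runs between 0.269 and 0.448 and the last between 0.0522 and 0.1335.

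AT3G26430, a GDSL-type lipase gene with an annotated 5' UTR of 1981 nt, is the clearest case and also the gene with the most 5' UTR sites, 14. All 14 lie in the 3' UTR of AT3G26420. The AGACA site shown above, 928 nt before its start codon, had a fraction of 1 in all 9 tissues at depths of 54 to 207 reads. AT2G43745, a jacalin lectin-like gene, shares its 5' UTR with the 3' UTR of AT2G43750 in the same way. Its AGACG site 175 nt before the start codon had fractions of 1 in seedling, 1 in shoot, 0.948 in root, 0.888 in rosette leaf, 1 in cauline leaf, 0.936 in stem, 1 in flower, 0.905 in silique and 0.727 in seed. The other genes with the most sites had no such overlap. AT1G53780, a proteasome ATPase gene, had 12 in 1492 nt. AT5G25560, a RING-type zinc finger gene, had 9, placed on isoforms with 5' UTRs of 447 and 1636 nt. AT3G48030, AT2G24280 and NPY5 (an NPH3-family gene) had 8 each. Long 5' UTRs were common to all of them, though in AT5G25560 only part of the sites lay in the 1636-nt one.

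How far the sites were shared between tissues was asked next, with the authors' mark for passing their calling. Here and below, a tissue's mark was counted only where it had 20 reads or more at the site. Of the 5391 sites, 642 were marked in no tissue at this depth, 3235 in 1 tissue and 27 in all 9. Those marked in 1 tissue were most often marked in shoot (661, 20.4%) or silique (608, 18.8%) and least often in rosette leaf (91, 2.81%). The same counts were not made over all listed sites, so whether this sharing is particular to 5' UTRs was not tested. Of covered 5' UTR sites, 35.8% were marked in shoot, 38.7% in silique and 11.1% in rosette leaf. The CDS had 37.5%, 44.7% and 11.3% in the same order. The 1822 sites covered by 20 reads or more in all 9 tissues had a median range of 0.182 between their lowest and highest fraction. The highest fraction was in silique at 551 of the 1755 sites with a single highest tissue (31.4%), and the lowest was in root at 426 of 1246 (34.2%) or in rosette leaf at 262. Silique and root also had the highest and the lowest median among these sites. As CDS medians were also highest in silique and lowest in root, this order was not particular to 5' UTRs. A site can be listed through its mark in the tissue where it is high, and silique gave more marks than rosette leaf. The part of this in the counts of highest and lowest tissues was not tested.

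The 27 sites marked in all 9 tissues lay in 26 genes, 22 of them at RAC motifs, and 6 in an exon of another gene. Most had fractions well under 1, and their median range between tissues was 0.190. RAN2, at CGACA 32 nt before the start codon, had fractions of 0.349 in seedling, 0.317 in shoot, 0.216 in root, 0.215 in rosette leaf, 0.332 in cauline leaf, 0.196 in stem, 0.328 in flower, 0.382 in silique and 0.294 in seed, at depths of 147 to 701 reads. PGY1, at AGACA 9 nt before the start codon, had 0.287 in seedling, 0.143 in shoot, 0.111 in root, 0.115 in rosette leaf, 0.237 in cauline leaf, 0.167 in stem, 0.216 in flower, 0.258 in silique and 0.186 in seed, at 152 to 2332 reads. In both genes silique was above root and rosette leaf, as in the medians of all 5' UTR sites. ERD15, a dehydration-induced gene, carried AGACA 392 nt before the start codon inside an upstream ORF, with fractions between 0.152 in rosette leaf and 0.348 in silique.

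**Figure D4:**
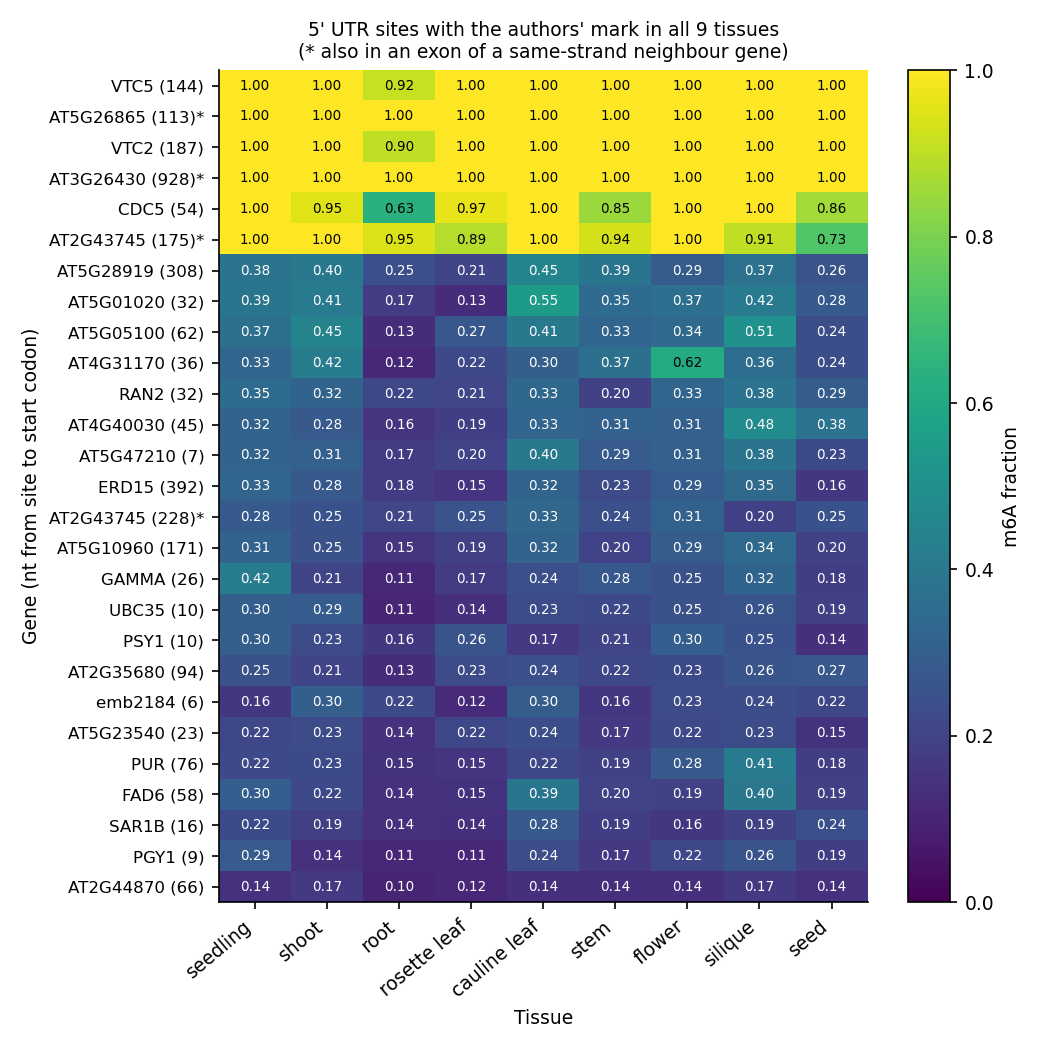
Heat map of the m6A fraction (colour scale, 0 to 1) of the 27 sites marked in all 9 tissues, with 1 line per site, named by gene and distance to the start codon in nt, and a column for each tissue. A star marks sites also in an exon of a neighbour on the same strand. VTC2, VTC5 and AT3G26430 stand at or near 1 throughout, and RAN2 runs between 0.196 and 0.382.

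The highest fractions belonged to a few genes. Among the 763 sites covered by 50 reads or more in all 9 tissues, 7 had a median fraction of 1. VTC2, at GAAGG 187 nt before the start codon in a 5' UTR of 556 nt, had a fraction of 1 in 8 tissues and 0.903 in root, at depths of 350 to 3372 reads. VTC5, at GAAGG 144 nt before the start codon in a 5' UTR of 508 nt, had 1 in 8 tissues and 0.917 in root, at depths of 33 to 659 reads, which fell under 50 in rosette and cauline leaf. VTC2 is known for an upstream ORF that begins at a codon other than ATG and through which ascorbate lowers its translation.

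The windows of VTC2 and VTC5 shown above are identical at 20 of 21 bases. In each, the bases around the site can form a stem of 7 pairs, 1 of them G with U, closed by a loop of 4 nt that holds the site. GAAGG was listed at 461 sites in the tissue table and at 10 of the 5' UTR sites, and only VTC2 and VTC5 among these 10 were marked in more than 1 tissue. The other 8, among them CKL13, BBX12 and PP2A-4, were marked in 1 tissue each. High fractions at GAAGG were not confined to these genes: 47 GAAGG sites had a median fraction of at least 0.9, and 3 of these 47 lay in 5' UTRs. Further 5' UTR sites of the same genes varied more between tissues: VTC2 at TTAGG, 120 nt before the start codon, ranged between 0.0652 in root and 0.691 in cauline leaf. VTC5 at TTAGG, 63 nt before the start codon, had 0.724 in seedling, 0.353 in shoot and 0 in the other 7 tissues. The mutation rate of these bases in the input libraries was not analysed here.

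Other sites near 1 were mixed in kind. AT3G16850, a pectin lyase-like gene, had TAAGT 13 nt before the start codon with fractions between 0.911 in root and 1, marked in 8 tissues. CDC5, a MYB-type splicing factor gene, had TTAGC 54 nt before the start codon with 0.633 in root, 0.848 in stem, 0.862 in seed and 0.949 to 1 in the other tissues. The AT2G20410 site (CAAGT) had a fraction of 1 in all 9 tissues, and the window around it was found at 16 other loci of the genome at up to 100% identity. AT3G43980, a ribosomal protein S14 family gene, had sites at ACAAA and GTAAT at 1 but marked in 1 tissue only, and another locus holds a different base at each. Of 63 sites searched, 6 had another such locus: besides these 3, TUA6 at the start codon (94.1% identity) and VTC2 and VTC5 themselves (94.6% identity each, with the same base at the site). Reads at these 6 sites may belong to more than 1 locus, which was not tested, so the fractions of 1 at VTC2 and VTC5 cannot be taken as separate measurements.

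The widest tissue differences were also outside RAC. Of these deeply covered sites, 31 of 763 reached both 0 and 1, and 1 of these 31 was a RAC site. LSM2, a spliceosomal and mRNA decay protein gene, had GCAGG 11 nt before the start codon with 0 in seedling, 0 in shoot, 0.451 in root, 1 in rosette leaf, 0.438 in cauline leaf, 0.243 in stem, 0.914 in flower, 0.512 in silique and 0.480 in seed. GILP, at ATACT 97 nt before the start codon, had 1 in silique and at most 0.251 elsewhere, and ARA6, a Rab GTPase gene, at CCATC 84 nt before it, had 1 in rosette leaf and at most 0.442 elsewhere. AT3G07700, AT1G36050 and APRL5 had ranges of 1 as well. Each of these 6 sites was marked in 1 tissue only, and without replicate values their tissue differences have no error to be set against.

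Of the RAC sites that touch the start codon, those with the deepest reads are given here. XTH24 at AGACA, 3 nt before the ATG, had fractions of 0.228 in seedling, 0.201 in shoot, 0.106 in root, 0.0911 in rosette leaf, 0.221 in cauline leaf, 0.181 in stem, 0.236 in flower and 0.239 in silique, at depths of 248 to 3791 reads. Seed had 13 reads there. PSBY at AGACA, also 3 nt before it, ran between 0.224 in rosette leaf and 0.368 in silique over the 7 tissues with more than 17 reads. AT4G26710, a vacuolar ATPase subunit gene, at AGACA 2 nt before it, ran between 0.0521 in root and 0.170 in seed. TUA6, an alpha-tubulin gene, at CGACA 3 nt before it, ran between 0.120 in root and 0.307 in cauline leaf over the 8 tissues other than seed. AT5G57655, a xylose isomerase family gene, at AAACT 3 nt before it, had 0.913 in rosette leaf at 61 reads and at most 0.2185 elsewhere, and was marked in 1 tissue. AT2G41840, a ribosomal protein S5 family gene, at CGACA 3 nt before it, ran between 0.0302 in root and 0.1155 in silique, and was marked in 1 tissue. Root and rosette leaf were the lowest 2 covered tissues in XTH24, TUA6 and AT4G26710. Rosette leaf was lowest in PSBY, where root had 17 reads, and root was lowest in AT2G41840. AT5G57655 departed from this order, with rosette leaf highest.

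Gene groups were then described by how many of their members carry a 5' UTR site, beside 19.5% of all genes with sites. Of 23 genes with known upstream ORFs, 19 carried one (82.6%), 40 sites in all, and the median 5' UTR of the group was 508 nt. Of 8 genes of abscisic acid signalling 5 did, of 12 clock genes 5, of 12 nuclear photosynthesis genes 5, of 8 translation initiation genes 2, of 4 RNA binding and splicing genes 1, of 13 m6A writers, erasers and readers 2, and of 6 heat shock genes none. The groups also differed in 5' UTR length, with medians of 602 nt for the abscisic acid genes, 374 nt for the clock genes, 203 nt for the photosynthesis genes and 221 nt for the heat shock genes. The part of length in these counts was not tested.

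Among the genes with known upstream ORFs, fractions were mostly low at great depth. SAMDC, the polyamine enzyme S-adenosylmethionine decarboxylase, had AGACG in an upstream ORF 228 nt before the start codon with 0.147 in seedling, 0.172 in shoot, 0.0773 in root, 0.104 in rosette leaf, 0.164 in cauline leaf, 0.115 in stem, 0.136 in flower, 0.193 in silique and 0.0876 in seed, at 1179 to 5085 reads. bZIP2, a transcription factor whose upstream ORF responds to sucrose, had AGACA 83 nt before the start codon with 0.173 in rosette leaf to 0.443 in silique over the 8 tissues where it was marked. CIPK6, a kinase of calcium signalling, had AGATA 78 nt before the start codon between 0.0559 in root and 0.166 in silique. In all 3 genes silique was highest and root or rosette leaf lowest.

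In the remaining groups few sites were marked in several tissues. HAB1, a phosphatase that damps abscisic acid signalling, had 6 sites, and its AGATG site 390 nt before the start codon was marked in 5 tissues, with fractions of 0.0879 in rosette leaf to 0.249 in silique. ABI5, a seed transcription factor, had AGACA at 0.223 in seed at 2225 reads and 0.562 in flower at 20 reads, with fewer reads in each other tissue, and GAACC at 1 in seed at 1654 reads. PSAF, a photosystem I subunit, had CGACA 10 nt before the start codon between 0.0777 and 0.137 over the 8 tissues other than seed, at up to 11522 reads. In seed it had 0 at 38 reads. LHCA1, a light-harvesting protein, had CGACA 17 nt before its start codon at 0.0588 to 0.106 over the 8 tissues other than seed, at up to 29739 reads. Of the clock genes CCA1, LHY, TOC1 and RVE8 each had a site marked in 1 tissue, and so had ALKBH10B, ECT2 and SR30. PAB8, a poly(A)-binding protein, had AGACT marked in 3 tissues with 0.0577 to 0.175.

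The mta experiment asks which sites depend on MTA. The 804 5' UTR sites covered by 20 reads or more in mta and in Col had a median fraction of 0.152 in mta and 0.126 in Col. Of the 804, 303 were lower in mta (37.7%), beside 49.0% of all listed sites and 38.2% of CDS sites, and 460 were higher. The median of the mta minus Col differences was 0.0224 (95% interval 0.0127 to 0.0331, binomial, over sites). That interval holds the spread over sites only, which share the same pooled samples, so it gives no error for mta against Col. The 20911 CDS sites gave 0.144 in mta and 0.119 in Col, and the 12551 3' UTR sites 0.277 in mta and 0.431 in Col. A fall over the whole class was thus seen in 3' UTRs and not in 5' UTRs or the CDS, by medians of pooled values with no replicate error.

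The rule for a reduced site was a Col fraction of at least 0.1 and an mta fraction of at most 2/3 of it. By this rule 184 of 477 5' UTR sites were reduced (38.6%, 95% Wilson interval 34.3 to 43.0, counting error over sites only), beside 42.9% of all listed sites. The CDS had 37.8% and the 3' UTR 48.8%. The same rule turned round, asking for a Col fraction of at most 2/3 of an mta fraction of at least 0.1, called 289 of 569 5' UTR sites (50.8%), beside 37.1% of all listed sites, and 50.9% in the CDS but 16.4% in the 3' UTR. In 5' UTRs the rule called a larger share in the turned direction than in the named one. Among 5' UTR sites marked in Col, which the choice itself sets high in Col, 166 of 347 were reduced (47.8%), beside 49.6% of all listed sites marked in Col, 45.7% in the CDS and 53.5% in the 3' UTR.

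**Figure D5:**
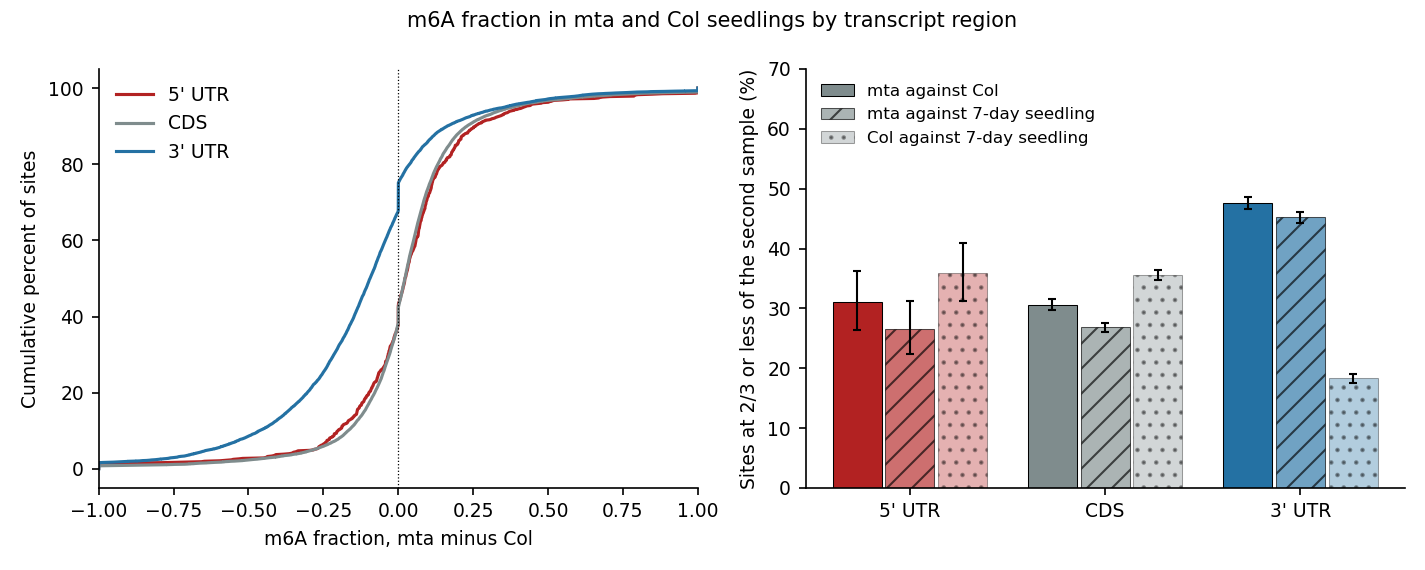
Left panel, cumulative percent of sites (y axis) by the mta minus Col difference in m6A fraction (x axis) for 5' UTR, CDS and 3' UTR sites covered by 20 reads or more in mta and in Col. Right panel, percent of sites reduced (y axis) by region for mta against Col and for mta and Col against the 7-day seedlings, at sites measured in all 3, with 95% Wilson intervals. The 5' UTR curve follows the CDS curve, with median differences of 0.0224 and 0.0221, and the 3' UTR curve lies to the left with a median of -0.0944.

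The 7-day seedlings of the tissue series gave another wild-type sample for the same bases, at 485 5' UTR sites. At these sites 31.1% were reduced in mta against Col, beside 39.3% of all listed sites measured in all 3 samples. Against the 7-day seedlings 26.6% of the sites were reduced in mta, beside 35.6% of all listed sites, and 35.9% were reduced in Col, beside 27.3% of all. In the CDS the shares were 26.8% for mta and 35.6% for Col, and in 3' UTRs 45.2% for mta and 18.3% for Col. So at 5' UTR sites, as at CDS sites, the wild-type Col sample was called reduced more often than mta. Between these wild-type samples the median Col minus 7-day seedling difference at the 485 sites was -0.0152 (interval over sites -0.0254 to -0.00387). The median absolute difference in fraction at these 485 sites was 0.0856 between mta and Col and 0.0694 between Col and the 7-day seedlings, and Spearman's rho was 0.358 and 0.540 in the same order, as a description over sites that share libraries. In the CDS rho was 0.3477 and 0.5355 in the same order.

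By motif, 35.8% of 321 RAC sites, 54.3% of 35 GAT sites and 41.3% of 121 others were reduced in mta. Of 5' UTR sites within 50 nt of the start codon 36.4% were reduced and farther off 40.9%, and in upstream ORFs 44.8% against 37.0% outside them. Turned round, the rule called 51.5%, 50.0%, 54.0% and 50.1% in the same order. These shares come from pooled values with no replicate error, and differences between the 5' UTR classes were not tested. Of the 1142 5' UTR sites listed, 565 were marked in mta, 460 in Col and 171 in both. The same counts of marks were not made over all listed sites. A site can stand in the list through its call in a single genotype. The part of this in the falls and rises was not tested.

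Of the sites covered by 50 reads or more in mta and in Col, 160 of 439 sites were lower in mta, beside 49.8% of all listed sites so covered, 264 were higher and 15 equal. A fall of more than 0.3 was seen at 10 of these 439 sites and a rise of more than 0.3 at 30. Higher sites and changes of this size were not counted over all listed sites or CDS sites at this depth. Whether the excess of large rises is particular to 5' UTRs was thus not tested. At the lower depth limit used above, the median mta minus Col difference was 0.0224 in 5' UTRs and 0.0221 in the CDS. VTC2 had a fraction of 1 in mta and 1 in Col, at 1413 and 1377 reads. VTC5 likewise had 1 in mta and 1 in Col, at 57 and 67 reads. The AT3G26430 site also had 1 in both genotypes.

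The sites with the largest falls were mostly outside RAC. RAB1C, a Rab GTPase of membrane traffic, had 0 in mta and 1 in Col at CAAAC, and CSLC04, a xyloglucan glucan synthase, had 0 in mta and 1 in Col at TTATG. LIL3:2, a light-harvesting-like protein of the chloroplast, had 0.181 in mta and 0.897 in Col at CAAAG, with 0.800 in the 7-day seedlings. AT3G59780, a rhodanese-like protein, had 0.222 in mta and 0.658 in Col at AGACA, with 0.481 in the 7-day seedlings. It is a RAC site, as are the sites of emb1138 (AAACC) and AT2G43745 (GAACC) below. GAE1, a sugar nucleotide epimerase, had 0.202 in mta and 0.797 in Col, emb1138, the chloroplast RNA helicase RH3, 0.111 in mta and 0.534 in Col, and PSRP5, a plastid ribosomal protein, 0.212 in mta and 0.564 in Col. AT2G43745 fell at GAACC, 0.338 in mta and 0.754 in Col, but stood at 0.338 in the 7-day seedlings too.
LIL3:2, chr5:19135267-19135287, minus strand: gagagagaCAAAGagagagag
AT3G59780, chr3:22086725-22086745, plus strand: tcttgttgAGACActgtttct

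The largest rises spanned the whole scale. EIF3G1, a subunit of translation initiation factor eIF3, ITPK1, an inositol phosphate kinase, and CIPK12, a calcium-signalling kinase, each had 1 in mta and 0 in Col, at AAAGC in EIF3G1, AAAGC in ITPK1 and CCAGA in CIPK12. ITPK1 had 0.318 in the 7-day seedlings. PTAC4, a plastid membrane protein also known as VIPP1, had 1 in mta and 0.153 in Col at GAAAT, 1 nt before its start codon, with 0.837 in the 7-day seedlings. For ITPK1 and PTAC4 the wild-type samples thus differed from each other by 0.3 or more.

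Sites marked in all 9 tissues, and sites of genes with upstream ORFs, went both ways in mta. RAN2 had 0.114 in mta and 0.206 in Col, ERD15 0.154 in mta and 0.375 in Col, and PSY1, a sulfated peptide gene, 0 in mta and 0.382 in Col at 21 and 34 reads. PGY1 had 0.184 in mta and 0.213 in Col, emb2184, the plastid ribosomal protein L31, 0.202 in mta and 0.237 in Col, and FAD6 0.263 in mta and 0.311 in Col. AT5G47210, an RNA-binding protein gene, had 0.426 in mta and 0.333 in Col, and AT5G01020, a protein kinase gene, 0.401 in mta and 0.111 in Col. Of the genes with upstream ORFs, SAMDC had 0.124 in mta and 0.119 in Col, bZIP2 0.3001 in mta and 0.1762 in Col, and bZIP1 0 in mta and 0.519 in Col at 48 and 25 reads.

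Expression of the carrier genes was compared last, on input libraries, as log2(TPM + 1) with limma. The 988 carriers tested held 135 genes higher in mta (13.7%), beside 6.31% of all 18420 genes tested, and 306 lower (31.0%), beside 20.6% of all. The median log2 fold change was -0.11 for carriers and -0.14 for all genes. Carriers were more highly expressed, with a median of 31.4 TPM against 8.45 TPM for all, and within a level the shares came close: at a mean of 50 TPM or more, 24.1% of carriers and 22.3% of all genes were higher, and 46.8% and 45.3% lower. At 10 to 50 TPM, 8.95% of carriers and 7.47% of all genes were higher, and 25.3% and 27.4% lower. In whole seedlings fewer cells of a type and less RNA per cell cannot be told apart, and the labels do not say whether the replicates were separately grown.

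Of the named carriers, RAN2 averaged 96.7 TPM in mta and 139.8 TPM in Col and fell (log2 fold change -0.53, SE 0.04, adjusted p = 0.000122, limma). PGY1 was at 285.4 and 287.2 TPM in mta, against 374.3 and 373.7 TPM in Col, and fell (log2 fold change -0.38, adjusted p = 6.56e-05). The replicates of the genotypes did not overlap in PGY1, nor in RAN2, VTC2, VTC5, FAD6 and LIL3:2. How many of all genes tested were so separated was not counted. VTC2 was at 485.9 and 483.1 TPM in mta, against 543.1 and 551.7 TPM in Col (log2 fold change -0.18, adjusted p = 0.0014), and VTC5 at 16.5 and 15.7 TPM in mta, against 20.3 and 20.5 TPM in Col (log2 fold change -0.32, adjusted p = 0.0202). FAD6 rose, with 436.2 and 441.8 TPM in mta, against 364.8 and 372.4 TPM in Col (log2 fold change 0.25, adjusted p = 0.000458), and so did LIL3:2 (log2 fold change 0.21, adjusted p = 0.00256). ERD15 had a log2 fold change of 0.02 (adjusted p = 0.713) while its site read 0.154 in mta and 0.375 in Col.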

How the data were processed

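PolyA RNA of 9 Col-0 tissues and of mta and Col seedlings was profiled by m6A-SAC-seq, with treated and input libraries in duplicate. The authors mapped reads to TAIR10 with their m6A-SAC-seq pipeline (aligner not stated). They deposited, per site and per tissue or genotype, a depth (a count of reads), an m6A fraction calibrated on spike-in probes, and a mark for passing their calling. Replicates were pooled, with the libraries behind the depth not stated. The authors also deposited gene counts per library for the tissues and TPM per library for the mta experiment.

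Sites were taken where the deposited region was 5' UTR, on chromosomes 1 to 5, and fractions used at a depth of at least 20 reads. At this limit, values at 18 to 19 reads had a median of 0.0751 and those at 20 to 21 reads 0.0866. The deposited motif matched the TAIR10.1 (RefSeq) base at 100% of positions, so that annotation gave start codons, upstream ORFs and overlapping exons. Medians were compared over tissues by exact two-sided sign-flip tests in Python 3.11.15 with scipy 1.17.1, with Benjamini-Hochberg adjustment over 4 tests at 0.05. Expression was tested by limma 3.58.1 (trend) in R 4.3.3 on log2(TPM + 1), leaving out genes whose mean was under 1 TPM, with Benjamini-Hochberg adjustment over all genes. This scale understates changes of low genes. The code was tested on simulated data. Windows around named sites were searched in the genome with blastn 2.17.0 (at least 80 nt aligned at 90% identity).

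Sites were named by rule: the 8 highest medians and 6 widest ranges at 50 reads in all tissues, the 8 largest falls and 4 largest rises in mta, the 5 genes with most sites (a tie at 8 sites kept all), and at most 4 genes per list by depth. Sites marked in all 9 tissues, start codon sites, GAAGG sites, bZIP1 and the other genes named were chosen after their values were seen. The members and gene lists were chosen with earlier results of these data known. Alternatives were depth limits, the authors' mark, motif, the reference, pseudocount, filter, replicate block and omitted samples. Leaving out overlapped sites or fractions of 0 and 1 was chosen after seeing the data.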

Additional observations from a re-analysis of the deposited data

How the results depend on the processing

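Differences over tissues kept direction and threshold when any 1 tissue was left out: -0.0053 to -0.00421 for 5' UTR minus CDS, -0.224 to -0.214 for 5' UTR minus 3' UTR, -0.667 to -0.478 points for the RAC share and -0.013 to -0.0105 for near minus far. 5' UTR minus CDS was 0.0315 with the authors' mark, 0.00491 for RAC motifs and 0.00324 without fractions of 0 and 1. The RAC share difference was 0.299 points at 10 reads, -2.21 points at 50 reads and 0.333 points with the mark (adjusted p = 0.645). Near minus far was -0.00271 for RAC motifs, -0.0439 with the mark and -0.0191 without fractions of 0 and 1. 5' UTR minus 3' UTR ran between -0.332 (RAC motifs) and -0.193 (without fractions of 0 and 1). The share reduced in mta was 28.7% at 50 reads, 47.2% for a Col fraction of at least 0.2, 47.8% with the mark in Col, 26.6% against the 7-day seedlings, 29.4% for an mta fraction of at most 1/2 of Col and 33.7% without fractions of 0 and 1. The median mta minus Col difference at sites with a Col fraction of at least 0.1 was -0.0279 (-0.0993 from 0.2 up, -0.0655 with the mark), and 0.0224 over every site with the depth. The cause of these shifts was not tested.

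Of the carriers, 441 passed the expression test, 307 to 336 when any 1 library was left out. With the replicate block 420 passed (122 higher, 298 lower), and the labels' numbers did not pair the samples (correlation of deviations 0.0587 over 18420 genes). At 20 reads a fraction carries wide counting error, and pooled values hide the spread between replicates.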
